A study of Mus musculus with 4 samples.

Results

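Vitamin A signalling was followed through 8 genes that make, break down, bind or answer to retinoic acid: Aldh1a1, Aldh1a2, Aldh1a3, Cyp26b1, Rarb, Dhrs3, Crabp1 and Crabp2. They were chosen by symbol, each matched 1 row of the 32289 genes in the deposited tables, and all 8 were found in GENCODE M21. Retinol enters cells, is oxidised to retinal and then, by the Aldh1a enzymes, to retinoic acid, which binds nuclear receptors that sit on DNA as dimers and switch target genes on. Cyp26 enzymes clear retinoic acid, Dhrs3 turns retinal back into retinol, and the Crabp proteins carry retinoic acid inside the cell. In the inner ear, retinoic acid is needed for patterning of the otocyst, and in the vestibular organs Cyp26b1 and Aldh1a3 are known for their opposing zones across the sensory epithelium.

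All cells came from organoids of the inner ear, balls of cultured mouse stem cells steered into an otic fate. The line, Atoh1-nGFP-ESC, carries a nuclear GFP under the control of Atoh1, a gene needed to make hair cells, and every group was made from it. The droplet libraries numbered 4 and had no replicates: organoids after 16 days, after 20 days, and after 21 days with a high (GFP high) or a low (GFP low) GFP signal. The labels state sorting on GFP for the whole experiment but name a gate at day 21 only, and the number of organoids or cultures behind a library is not given in the sources used here. Cells kept numbered 3358, 4315, 3431 and 3680 in this order, with 57272024, 42006170, 107116695 and 92970887 UMIs, and pairs of libraries shared 1 to 8 barcodes. With 1 library a group, nothing below has a test across samples, and every 95% interval covers counting error only.

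Levels are given as CPM, the usual scaling of a gene's UMIs by all UMIs of the same cells. Cells were clustered without the 8 genes and 34 other genes of the pathway, so none of these set a cluster, and clusters took a cell class name from marker genes. Hair-cell-like cells numbered 191, 147, 2238 and 814 (libraries always in the order of day 16, day 20, GFP high, GFP low). Supporting-cell-like cells numbered 25, 17, 295 and 659, neuron-like cells 1332, 670, 231 and 1136, and mesenchyme-like cells 936, 2028, 45 and 98. Among the hair-cell-like cells, 20 to 22 of 22 hair cell markers stood at 20 CPM or more in each library, and all 10 mesenchyme markers did so in the mesenchyme-like cells. The labels call every library otic lineage, while neuron-like and mesenchyme-like cells together outnumbered the hair-cell-like cells at days 16 and 20. A gene counted as measured in a comparison at 10 CPM or more on either side. It was called higher or lower by size if the ratio of the levels reached 2 in either direction and its counting interval left out 1.

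The receptor gene Rarb is itself a textbook target of retinoic acid through a direct repeat of the receptor binding half-site with a spacer of 5 bases, named DR5, and Cyp26a1 carries a similar element. Both sites are shown because Rarb stands at the centre of the results and because they show what a match of the DR5 motif looks like. RefSeq windows on GRCm38.p6 from 250 bases before to 50 bases after a start were at hand for 6 of the 8 genes (not Aldh1a3 and Crabp2) and for 26 of the 34 other pathway genes. The DR5 match is in capitals, each written 5′ to 3′ along the strand on which the motif reads, which is the gene's own strand for Rarb (chr14:16575506-16575535, minus strand) and the opposite strand for Cyp26a1 (chr19:37697770-37697799, minus strand).
Rarb: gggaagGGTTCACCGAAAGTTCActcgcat
Cyp26a1: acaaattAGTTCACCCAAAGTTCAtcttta
The matches shared 15 of 17 bases. In Rarb the match ended 36 bases before a RefSeq start that lies inside the gene, and GENCODE M21 annotates a UTR exon of Rarb over these bases. In Cyp26a1 it ended 15 bases before the start, between annotated genes.

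With both strands searched, 32 of 32851 RefSeq windows (0.0974%) held DR5 and 88 (0.268%) held DR2, the form with a spacer of 2 bases. Among the 8 genes Rarb alone had a match, 1 of DR5, in 9 windows, and among the other pathway genes Cyp26a1 alone, in 40 windows. The first of the Dhrs3 windows, a gene called beside Rarb in several comparisons below, is shown for its 250 bases before the gene's start (chr4:144892577-144892826, plus strand) and is all in lower case since neither motif matched there.
Dhrs3: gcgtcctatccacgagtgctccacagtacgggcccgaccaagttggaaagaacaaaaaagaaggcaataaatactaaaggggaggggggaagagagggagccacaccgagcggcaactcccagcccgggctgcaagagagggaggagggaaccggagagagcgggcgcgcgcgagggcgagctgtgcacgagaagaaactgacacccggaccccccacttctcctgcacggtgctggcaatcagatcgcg
A match describes letters, and no match says only that these letters are not in this window.

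Over all kept cells, the 8 genes fell into different patterns by library. Rarb stood at 5.34 CPM at day 16, 3.83 at day 20, 72.5 for GFP high and 62.0 for GFP low. Dhrs3 stood at 6.22, 14.6, 140.6 and 119.0 CPM in the same order, and Aldh1a3 at 47.2, 47.4, 154.3 and 129.6 CPM. For these 3 genes, and for the scarcer Aldh1a1 below, both day 21 libraries stood above both earlier ones. The share of all genes that did so was not counted, and the mix of cell classes differed between these libraries. Crabp1 went another way, with 150.6, 280.1, 34.3 and 161.2 CPM, and Crabp2 stood at 102.7, 109.0, 28.2 and 134.6 CPM. For both carriers GFP high was the low library and the other 3 were high. Cyp26b1 stood at 29.3, 13.4, 23.7 and 25.4 CPM, lowest at day 20, and Aldh1a2 at 5.605, 15.6, 2.30 and 5.37 CPM, highest at day 20. Aldh1a1 was scarce, with 0.681, 0.762, 8.54 and 14.3 CPM.

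**Figure D1:**
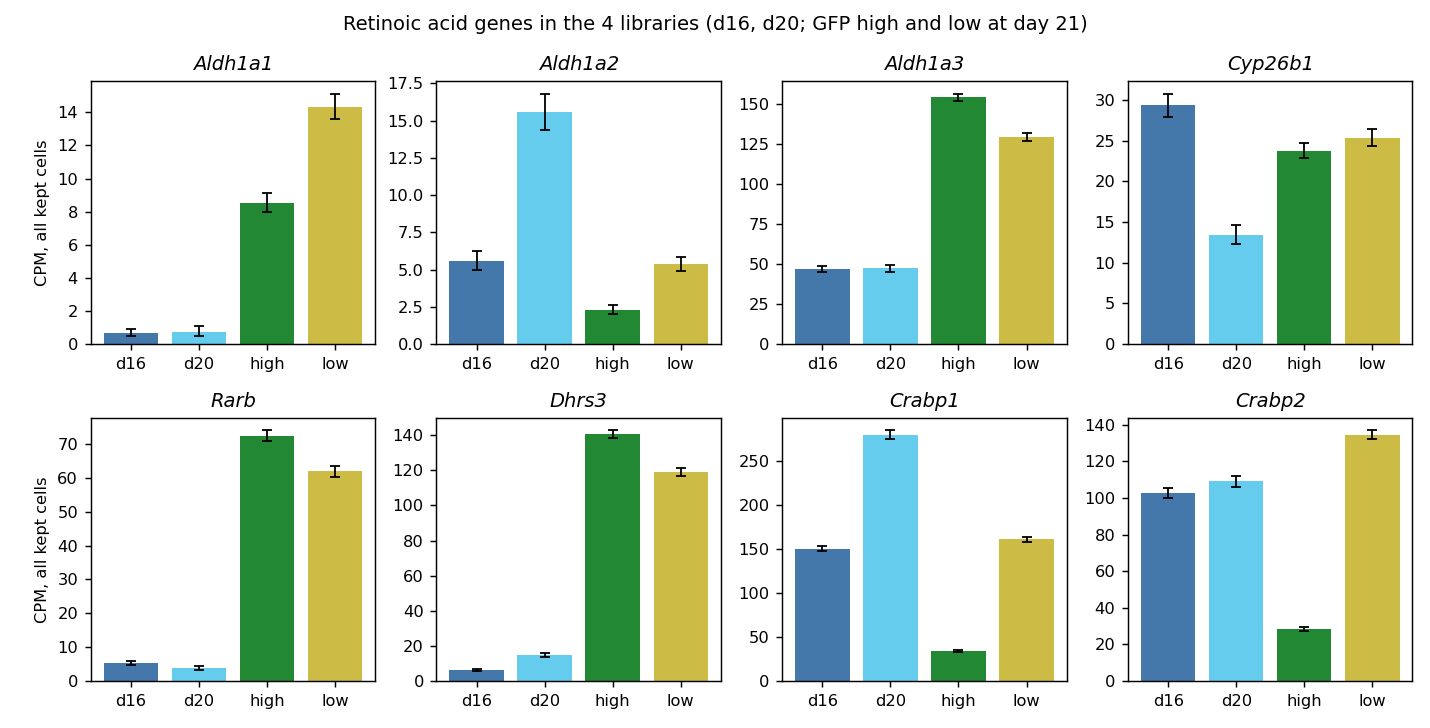
Level of each of the 8 genes over all kept cells of a library, in CPM on a linear axis that starts at 0 and differs between panels; bars are single libraries and error bars exact Poisson 95% intervals. Rarb, Dhrs3 and Aldh1a3 are high in both day 21 libraries, while Crabp1 and Crabp2 are low in GFP high alone (34.3 and 28.2 CPM).

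Between the day 21 gates, 2 of 7 measured members were lower by size in GFP high, against 7.66% of 10537 genes. These were Crabp1, 4.70 times lower (95% interval 4.54 to 4.88), and Crabp2, 4.77 times lower (4.58 to 4.96). Of the Crabp1 UMIs of GFP high, 45.7% lay in 10 cells. From day 16 to day 20, 2 of 6 were higher, Aldh1a2 2.78 times (2.43 to 3.18) and Dhrs3 2.35 times (2.06 to 2.69), against 5.02% of 9889 genes, and Cyp26b1 was 2.18 times lower (1.98 to 2.41), against 6.81%. These ratios over whole libraries move with the number of cells of each class. Such a ratio alone does not tell fewer cells of a type from less RNA of the gene per cell. The classes are therefore taken in turn.

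Of the 3 enzymes that make retinoic acid, each had its highest level in a different place. The UMIs of Aldh1a1 (ENSMUSG00000053279, chr19:20492715-20643465, plus strand) lay mostly in unnamed clusters (76.9% to 81.3% of them in the 4 libraries). Among these was a cluster led by Mia and Oc90, in which 8 of 13 otic epithelium markers and 5 of 6 cartilage markers stood at 4 or more times the median cluster. This cluster held 37.6 CPM at day 16 (38 cells), 34.6 at day 20 (50 cells), 77.1 for GFP high (221 cells) and 81.6 for GFP low (368 cells). The intervals of the 2 day 21 libraries overlapped (71.1 to 83.4 and 76.6 to 86.9), as did those of the 2 earlier ones. Supporting-cell-like cells held 18.2 CPM in GFP high and 17.3 in GFP low, and hair-cell-like cells 0.305 to 0.482 CPM in all 4 libraries.

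Aldh1a2 (ENSMUSG00000013584, chr9:71215789-71296243, plus strand), the main enzyme of the early embryo's mesoderm, was a gene of the mesenchyme here, which gave 81.3% to 95.1% of its UMIs. Mesenchyme-like cells held 26.2 CPM at day 16, 36.0 at day 20, 196.0 for GFP high and 185.9 for GFP low, while hair-cell-like cells held at most 0.297 and supporting-cell-like cells at day 21 at most 0.162. Within the mesenchyme the level depended on the cluster. The cluster led by Ptgds and Otor held 505 CPM in the 17 cells of GFP high and 368.8 in the 46 cells of GFP low, but 11.9 in the 80 cells of day 16. The cluster led by Bgn and Col1a1 held 2.38 to 7.75 CPM in the 4 libraries. The high levels at day 21 were thus those of few cells, and 80.9% of all Aldh1a2 UMIs of GFP high lay in 10 cells.

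Aldh1a3 (ENSMUSG00000015134, chr7:66390890-66427517, minus strand) was highest in supporting-cell-like cells, with 770.1 CPM (697 to 849) at day 16, 644.6 (535 to 770) at day 20, 285.9 (274 to 298) for GFP high and 321.9 (312 to 332) for GFP low. The earlier values rest on 25 and 17 cells, and both lie above both day 21 values. Hair-cell-like cells held 109.6, 136.1, 142.2 and 181.8 CPM, less than the supporting-cell-like cells in each library. At day 21 it was 2.01 times lower (1.92 to 2.10) in hair-cell-like than in supporting-cell-like cells of GFP high and 1.77 times lower (1.69 to 1.85) in GFP low, the first just past and the second short of the size of 2. Merkel-cell-like cells, touch receptor cells of skin that also need Atoh1, held 10.6, 79.4, 66.5 and 59.6 CPM, and neuron-like cells 10.1 to 25.1 CPM.

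Cyp26b1 (ENSMUSG00000063415, chr6:84571414-84593908, minus strand), which clears retinoic acid, was highest in the mesenchyme, with 82.7 CPM at day 16, 24.0 at day 20, 130.3 for GFP high and 138.4 for GFP low. Hair-cell-like cells held 21.5, 7.87, 27.5 and 63.9 CPM, supporting-cell-like cells at day 21 8.36 and 6.31, and neuron-like cells 12.7 to 17.0 in the 4 libraries. In mesenchyme-like and in hair-cell-like cells alike, day 20 was the low library. The mesenchyme clusters split as they did for Aldh1a2, the other way round. The Bgn and Col1a1 cluster held 161.7, 102.2, 248 and 294.5 CPM of Cyp26b1, while the Ptgds and Otor cluster held 2.56 at day 16, 2.58 for GFP high and 2.73 for GFP low. In each of the libraries with 10 or more cells of both clusters (day 16 and both of day 21), the cluster with more Cyp26b1 had less Aldh1a2. This order did not extend to all mesenchyme clusters. At day 16 the Col1a1 and Col3a1 cluster, with still more Cyp26b1 (given further below), held 11.7 CPM of Aldh1a2 from 9 UMIs. That was close to the Aldh1a2 level of the Ptgds and Otor cluster.

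Rarb (ENSMUSG00000017491, chr14:16430839-16819156, minus strand) and Dhrs3 (ENSMUSG00000066026, chr4:144892827-144928209, plus strand) had their highest class level in hair-cell-like cells of GFP low. Rarb stood at 10.9 CPM (8.49 to 13.9) at day 16, 38.2 (30.9 to 46.5) at day 20, 98.0 (95.7 to 100.4) for GFP high and 215.4 (209 to 222) for GFP low, and no interval overlapped another. Dhrs3 stood at 1.93, 36.6, 188.2 and 398.2 CPM in this order. Hair-cell-like cells gave 87.0% of the Rarb UMIs of GFP high and 75.5% of GFP low, against 22.2% at day 16 and 60.2% at day 20. The class held 64.4% and 21.7% of all UMIs of GFP high and GFP low, and 10.9% and 6.05% at days 16 and 20. After thinning each cell to 3000 UMIs, 24.4% of hair-cell-like cells of GFP high and 46.7% of GFP low had a Rarb UMI, against 1.60% at day 16 and 13.3% at day 20. In Merkel-cell-like cells, where the level was 1.28 to 9.51 CPM, the shares were 0.531% to 3.08%.

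The carriers Crabp1 (ENSMUSG00000032291, chr9:54764748-54773110, plus strand) and Crabp2 (ENSMUSG00000004885, chr3:87948666-87953376, plus strand) both bind retinoic acid in the cytoplasm. Crabp1 stood at 73.0, 559.9, 460.1 and 513.9 CPM in neuron-like cells and at 474, 372.7, 702.7 and 301.7 CPM in mesenchyme-like cells, against 1.09 to 8.999 in hair-cell-like cells. Crabp2, which hands retinoic acid to the receptors, stood at 94.6, 296.7, 212.2 and 406.7 CPM in neuron-like and at 143.0, 109.2, 103.9 and 81.4 CPM in mesenchyme-like cells. In hair-cell-like cells Crabp2 had an order opposite to that of Rarb for the days, with 180.1 CPM at day 16, 71.2 at day 20, 9.34 for GFP high and 5.74 for GFP low. Supporting-cell-like cells had the same order of days for Crabp2, with 167.7 and 74.0 CPM at days 16 and 20 (25 and 17 cells) and 15.7 and 16.5 CPM at day 21.

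**Figure D2:**
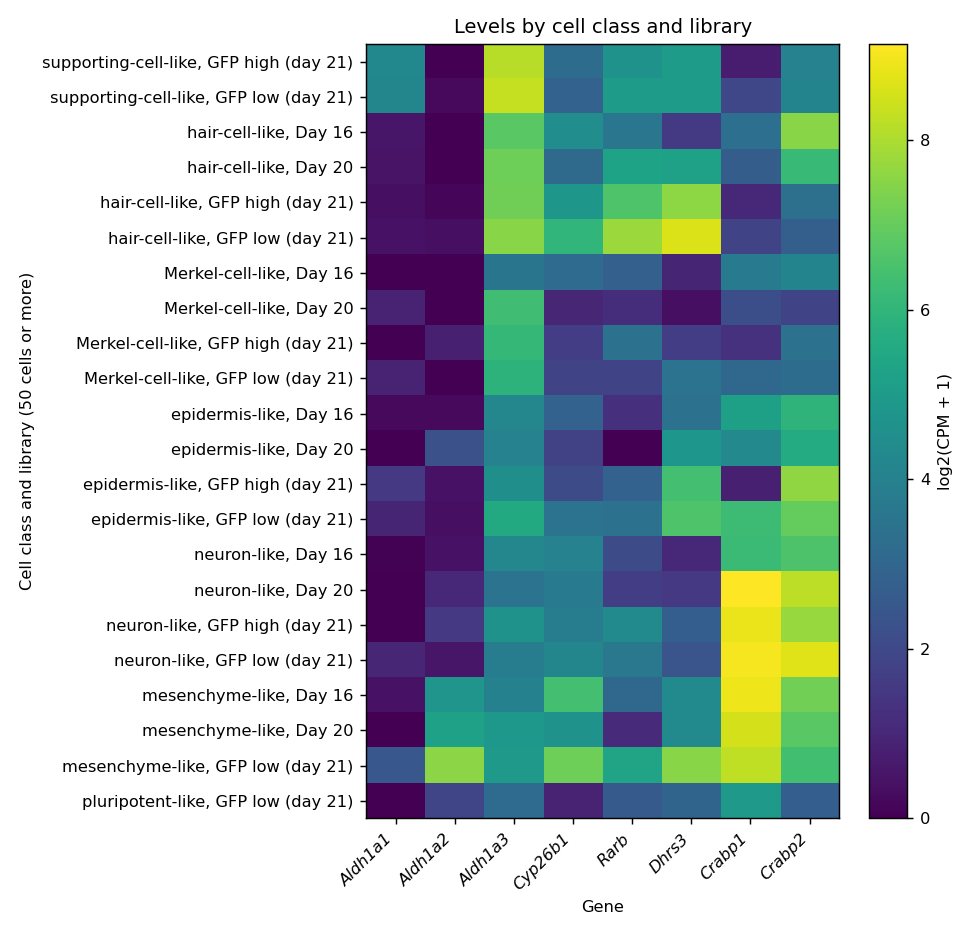
Heat map of log2(CPM + 1) for the 8 genes (columns) in the 22 pairs of a cell class and a library with 50 cells or more (rows). Aldh1a3 is brightest in supporting-cell-like cells (285.9 and 321.9 CPM), Aldh1a2 in mesenchyme-like cells, Rarb and Dhrs3 in hair-cell-like cells of day 21, and Crabp1 in neuron-like and mesenchyme-like cells.

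Hair cells and their supporting cells in the same library divided the pathway. In GFP high, 3 of 6 measured members were higher in hair-cell-like than in supporting-cell-like cells, against 18.8% of 10229 genes, and 2 were lower, against 15.8%. Dhrs3 was 5.87 times higher (5.18 to 6.67), Rarb 3.97 times (3.44 to 4.60) and Cyp26b1 3.29 times (2.57 to 4.27). Aldh1a1 was 59.9 times lower (37.8 to 99.8), with Aldh1a3 as above. In GFP low the same 3 were higher, against 19.9% of 10182 genes, at 12.5 times (11.3 to 13.9) for Dhrs3, 6.64 (5.995 to 7.38) for Rarb and 10.1 (8.06 to 12.9) for Cyp26b1. Aldh1a1 (49.99 times) and Crabp2 (2.88 times) were lower there, against 17.5%. In both libraries, then, 2 of the enzymes that make retinoic acid had more RNA in supporting-cell-like cells, and the clearing enzyme, the receptor and the retinal reductase had more in hair-cell-like cells.

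Other genes of the pathway were split between these cell classes as well. Of 15 measured, 6 were higher and 3 lower in hair-cell-like cells of GFP high, and 5 higher and 4 lower in GFP low. Rdh10, the main enzyme from retinol to retinal, stood at 181 CPM in supporting-cell-like and 22.5 in hair-cell-like cells of GFP high, and at 199.9 and 16.1 in GFP low. The partner receptor Rxra went the other way, with 6.59 and 66.2 CPM in GFP high and 7.52 and 153.0 in GFP low, as did Rdh12, a reductase of retinal, with 2.79 and 46.9 CPM and with 2.10 and 45.7.

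Between the gates, 3 of 4 measured members were lower in hair-cell-like cells of GFP high than of GFP low, against 1.67% of 9365 genes. Cyp26b1 was 2.33 times lower (2.17 to 2.50), Rarb 2.20 times (2.12 to 2.28) and Dhrs3 2.12 times (2.06 to 2.18), while Aldh1a3 was 1.28 times lower (1.23 to 1.33) and not called. The median log2 ratio of the 4 was -1.10, beside 0.01 over all genes tested. Of 14 other pathway genes measured, 12 were neither higher nor lower, and Rxra was 2.31 times lower. In supporting-cell-like cells 0 of 5 members were called between the gates, against 0.972% of 9259 genes, with ratios of GFP high over GFP low from 0.762 for Rarb to 1.05 for Aldh1a1. None of 13 other pathway genes was called there either. These counts rest on size, since no test could be run, and at no minimum level 1 member, Crabp1, was lower in supporting-cell-like cells of GFP high.

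The gates held different mixes of hair cell states, whose part in the gap is given below as values at an equal mix. The 5 hair-cell-like clusters are named here by their leading genes. The Pvalb and Gpx2 cluster, which had the most Atoh1 (417 CPM in GFP high, 302 in GFP low), made up 27.7% of hair-cell-like cells in GFP high and 8.23% in GFP low. The Kcna10 and Xirp2 cluster, with 15.6 and 8.54 CPM of Atoh1, made up 6.66% and 41.6%. The Xirp2 and Cib3 cluster made up 37.5% and 43.4%, the Ocm and Acbd7 cluster 16.8% and 5.53%, and the Pvalb and Otof cluster 11.4% and 1.23% (10 cells in GFP low).

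Dhrs3 differed far more between these clusters than between gates. It stood at 3.94 CPM in GFP high and 6.57 in GFP low in the Pvalb and Gpx2 cluster, and at 36.6 and 51.4 in the Pvalb and Otof cluster. The Ocm and Acbd7 cluster held 236.5 and 306.2 CPM, the Xirp2 and Cib3 cluster 328 and 384, and the Kcna10 and Xirp2 cluster 472 and 498. The order of the 5 clusters was the same in both libraries. Rarb kept a similar order in GFP high, with 12.8, 58.2, 121.1, 150 and 235 CPM in the clusters as just listed, and in GFP low 25.6, 160, 210.5, 177.7 and 285.3, where only the neighbours led by Xirp2 and by Ocm changed places and the cluster of 10 cells had an interval of 106 to 231 that reached both.

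Cyp26b1 did not follow that order. It was highest in the Kcna10 and Xirp2 cluster, with 55.5 CPM in GFP high and 106.6 in GFP low, and second in the Pvalb and Gpx2 cluster, with 45.5 and 45.3, while the Ocm and Acbd7 cluster held 8.97 and 18.2 and the Xirp2 and Cib3 cluster 13.6 and 29.8. Ocm is a marker of the striola, the central zone of vestibular epithelia where Cyp26b1 is known to be made in the ear, and the Ocm-led cluster had the lowest Cyp26b1 of the 5 in GFP high. Aldh1a3 ranged less, from 61.4 and 72.9 CPM in the Pvalb and Gpx2 cluster to 220.3 and 202.2 in the Kcna10 and Xirp2 cluster. When GFP high was given the cluster mix of GFP low, an alternative chosen after seeing the data, Dhrs3 was 1.11 times lower, Rarb 1.23 times and Cyp26b1 1.86 times lower in GFP high, and 0 members were called.

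**Figure D3:**
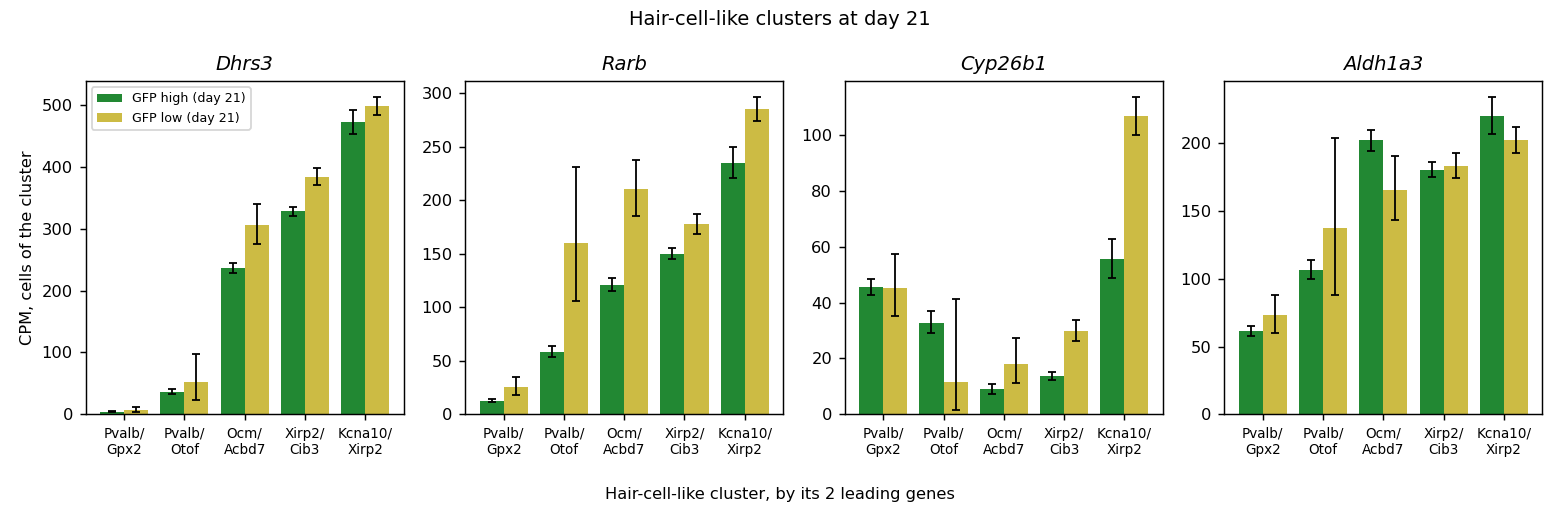
Levels of Dhrs3, Rarb, Cyp26b1 and Aldh1a3 in the 5 hair-cell-like clusters of the GFP high and GFP low libraries, in CPM from 0; bars are the summed cells of a cluster in 1 library and error bars exact Poisson 95% intervals. Dhrs3 climbs from 3.94 to 472 CPM across clusters in GFP high, a wider range than between the gates, and Cyp26b1 is highest in the Kcna10 and Xirp2 cluster.

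Within hair-cell-like cells from day 16 to day 20, 2 of 5 measured members were higher, against 5.07% of 9268 genes, and 2 were lower, against 10.3%. Dhrs3 was 19.0 times higher (10.4 to 38.0, from 12 to 93 UMIs) and Rarb 3.49 times higher (2.53 to 4.83), while Cyp26b1 was 2.74 times lower (1.70 to 4.62) and Crabp2 2.53 times lower (2.16 to 2.98). These were not evenly spread over clusters either. At day 20 Rarb stood at 1.12 CPM in the Pvalb and Gpx2 cluster, 66.6 in the Xirp2 and Cib3 cluster and 133.4 in the 12 cells of the Kcna10 and Xirp2 cluster, and the last 2 clusters held 6 and 2 cells at day 16. Those few day 16 cells had 104.9 and 175.5 CPM of Rarb but 12.1 and 19.5 of Dhrs3. With the 3 clusters of 10 or more cells in both libraries and the day 16 mix, an alternative chosen after seeing the data, Rarb was 2.57 times and Dhrs3 3.29 times higher, Cyp26b1 2.45 times and Crabp2 1.55 times lower, and 2 were called, Rarb and Cyp26b1. Of the 15 other pathway genes measured, 3 were lower and none higher, among them Nrip1, a co-repressor induced by retinoic acid, 129.8 against 33.8 CPM, and Tshz1, 51.7 against 14.6.

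The step to day 21 was taken from day 20 to GFP low, a comparison added after seeing the data in which the gate, the day and the library cannot be told apart. In hair-cell-like cells 3 of 5 members were higher, against 18.4% of 9456 genes: Dhrs3 10.9 times (8.87 to 13.5), Cyp26b1 8.13 times (5.24 to 13.4) and Rarb 5.65 times (4.62 to 6.98). Crabp2 was 12.4 times lower (9.78 to 15.8), against 7.22%. The median log2 ratio of the 5 was 2.47, beside 0.12 over all genes tested. In all 5 hair-cell-like clusters Rarb and Dhrs3 were higher in GFP low than at day 20, Rarb from 2.14 times in the Kcna10 and Xirp2 cluster to 22.9 times in the Pvalb and Gpx2 cluster, where day 20 had 1 UMI. When GFP low was given the cluster mix of day 20, an alternative chosen after seeing the data, the same 4 genes were called, with Dhrs3 at 5.44 times, Cyp26b1 at 4.77 times and Rarb at 3.53 times the day 20 level and Crabp2 5.22 times lower.

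The same pair was also higher outside the hair cells. In mesenchyme-like cells 4 of 7 members were higher in GFP low than at day 20, against 13.9% of 9062 genes. Rarb went from 1.10 to 39.8 CPM (36.2 times, 21.9 to 62.9), Dhrs3 from 19.3 to 179.1 (9.29 times, 8.01 to 10.8), Cyp26b1 from 24.0 to 138.4 (5.77 times, 4.97 to 6.71) and Aldh1a2 from 36.0 to 185.9 (5.16 times, 4.55 to 5.86). GFP high, with 45 such cells, had 41.2 CPM of Rarb and 171.5 of Dhrs3. In the Bgn and Col1a1 cluster alone, Dhrs3 stood at 22.1 CPM at day 16, 58.0 at day 20, 129.8 for GFP high and 138.3 for GFP low, and Rarb at 4.56, 0, 32.9 and 22.7. Aldh1a2 did not share this: in the Dcn and Mgp cluster it was 38.7 CPM at day 20 and 11.9 in the 11 cells of GFP low, and the class ratio rests on the Ptgds and Otor cluster, which had 8 cells at day 20. With doublets kept that cluster lost its name, and Aldh1a2 was then 0.131 times the day 20 level. Over the 2 clusters with 10 or more cells in both libraries and the day 20 mix, also chosen after seeing the data, Rarb was 26.9 times, Cyp26b1 9.66 times and Dhrs3 7.35 times higher in GFP low, while Aldh1a2 was 3.22 times and Aldh1a3 2.58 times lower. The day 20 mix was mostly the Dcn and Mgp cluster, with 15009470 UMIs against 1154242 in the Bgn and Col1a1 cluster. In GFP low the Dcn and Mgp cluster had 11 cells and 252475 UMIs, so the values at this mix rest mainly on those cells. Markers of other cell types moved with this class: the summed level of 8 astroglia markers was 169 CPM at day 20 and 1151 in GFP low, and that of 15 supporting cell markers 214 and 980, with 4 and then 7 of these at 20 CPM or more. Their part in the result was not tested.

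Epidermis-like cells (96 in GFP low, 135 at day 20) had 5 of 5 measured members higher, against 16.7% of 8565 genes, with a median log2 ratio of 1.72 beside 0.24 over all genes tested. With the mean of per-cell CPM 3 were called. In the 1 cluster with 10 or more cells in both libraries, 4 were called and Crabp2 was 1.71 times higher. The summed level of 8 muscle markers in this class was 17.4 CPM at day 20, with 0 of them at 20 CPM, and 867 CPM in GFP low, with 6 there, and that of 7 cartilage markers was 67.1 and 312.9 CPM. Their part in the result was not tested. Dhrs3 stood at 9.69, 27.1, 83.0 and 96.5 CPM in the 4 libraries, and Rarb, just under the minimum level, at 1.41, 0, 6.30 and 9.93. Crabp1 was 4.004 times and Crabp2 2.62 times higher in GFP low than at day 20, Aldh1a3 2.99 times and Cyp26b1 4.24 times. The 67 such cells of GFP high did not share all of this, with Crabp1 at 0.741 CPM, below the 18.8 of day 20. In GFP high Cyp26b1 stood at 3.33 CPM against 2.42 at day 20, Aldh1a3 at 22.6 against 15.5 and Crabp2 at 194.5 against 47.8. The Crabp1 ratio was 0.526 when the retinoid genes were allowed to shape the clusters. In neuron-like cells 1 of 5 members was higher, Rarb at 11.5 against 2.19 CPM (5.25 times, 3.13 to 9.50), against 5.04% of 9461 genes. Over 6 clusters and the day 20 mix, with 1 cluster left out, Rarb stood at 5.25 against 2.21 CPM, under the minimum level, and Crabp1 was 2.56 times lower in GFP low, at 219.7 against 561.6 CPM. In Merkel-cell-like cells 1 of 2 was higher, Dhrs3 at 10.2 against 0.284 CPM from 23 and 2 UMIs, against 8.87% of 8703 genes, and with TMM scaling 0 were called.

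Both day 21 libraries stood at least 2 times above both earlier ones in 6 of 6 classes for Dhrs3 and in 5 of 6 for Rarb, the exception being the Merkel-cell-like cells. Only 20 of 13606 genes (0.147%) did so in 5 or more classes, and 7 were at least 2 times below. Supporting-cell-like cells are part of that count with 0 UMIs of Dhrs3 at days 16 and 20, where 3 counts would be 5.72 and 15.9 CPM, and with 32.1 and 31.8 CPM at day 21. Merkel-cell-like cells count for Dhrs3 at 2.19 CPM in GFP high, the level of 3 counts there, against 0.938 at day 16. The minimum of 10 CPM was asked of the highest class only, and epidermis-like cells count for Rarb at 6.30 and 9.93 CPM. Mesenchyme-like cells of GFP high, also used, numbered 45. Of the 20 genes, 13 had their highest class level in hair-cell-like cells, the most common cells of GFP high, and free RNA of such genes can reach the droplets of other cells. Beside the other 11 of these 13, whose level in a class was a median of 0.689% to 3.905% of the hair-cell-like level of its library, Dhrs3 was at 2.99% in neuron-like cells of GFP high (median of the 11, 1.40%) and at 1.08% in GFP low (median 0.689%). In Merkel-cell-like cells it was at 1.17% (median 2.69%) and 2.57% (median 1.65%), and these 4 shares lay within the range of the 11. Rarb was at 19.9% and 5.32% in neuron-like cells, where none of the 11 passed 11.998% and 2.21%, and in Merkel-cell-like cells at 9.70%, where none passed 6.77%, and at 1.24%, within their range. The highest of the 22 hair cell markers was at 144.7% and 250.7% in neuron-like cells and at 254.4% and 282.2% in Merkel-cell-like cells. Rarb lay within the range of the markers in both classes, but that range ran above the hair-cell-like level itself, so lying in it says little. The marker medians were 2.82% and 0.817% in neuron-like cells, below Rarb, and 17.8% and 10.2% in Merkel-cell-like cells, above Rarb. In mesenchyme-like cells Dhrs3 was at 91.2% of the hair-cell-like level in GFP high and 44.98% in GFP low and Rarb at 42.0% and 18.5%, where none of the other 11 passed 13.3%. Of the 22 hair cell markers the highest in mesenchyme-like cells was at 24.9% in GFP high and 51.8% in GFP low, with medians of 2.63% and 1.995%. Both genes thus lay above the markers in GFP high and within their range in GFP low. In epidermis-like cells Dhrs3 was at 44.1% and 24.2%, where none of the 11 passed 16.0%, while Rarb at 6.43% and 4.61% lay within their range, as did both genes in supporting-cell-like cells. The part of free RNA in these levels was not tested.

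**Figure D4:**
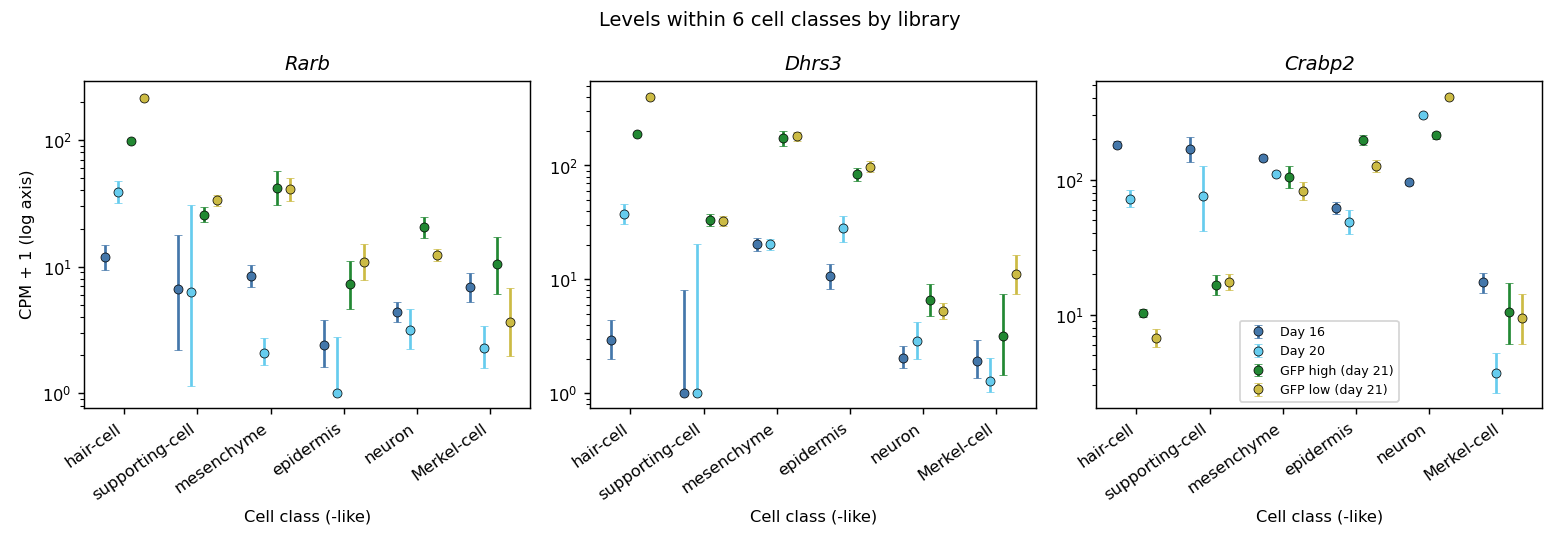
Rarb, Dhrs3 and Crabp2 in 6 cell classes by library, as CPM + 1 on a log axis; points are single libraries and bars exact Poisson 95% intervals. In the hair-cell, mesenchyme and epidermis classes both day 21 points of Rarb and Dhrs3 lie above both earlier points, whereas Crabp2 in hair-cell-like cells goes from 180.1 CPM at day 16 to 5.74 in GFP low.

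In neuron-like cells the members called by day were the carriers. From day 16 to day 20, 2 of 4 measured members were higher over all neuron-like cells, against 2.85% of 9298 genes: Crabp1 7.67 times (7.23 to 8.13) and Crabp2 3.14 times (2.95 to 3.33). A cluster led by Otp and D930028M14Rik, with 21 cells at day 16 and 82 at day 20, held 3555 of the 3844 Crabp1 UMIs and 1955 of the 2037 Crabp2 UMIs of neuron-like cells at day 20. There Crabp1 went from 135.2 to 2702 CPM and Crabp2 from 258.8 to 1486 CPM. In the other 4 clusters with 10 or more cells in both libraries, Crabp2 was lower at day 20, at 0.0501 to 0.306 times the day 16 level, and no interval reached 1. An example is the Slc32a1 and Sst cluster, with 73.3 CPM at day 16 and 3.67 at day 20. Without the Otp cluster, an alternative chosen after seeing the data, Crabp1 stood at 71.8 and then 52.1 CPM and Crabp2 at 91.3 and then 14.8, so Crabp2 turned from higher to lower. Over 5 clusters and the day 16 mix, also chosen after seeing the data and with 2 clusters left out, Crabp1 was 1.39 times higher at day 20 (94.5 against 68.0 CPM). At that mix Crabp2 was 1.91 times lower and Cyp26b1 2.08 times lower (7.51 against 15.6 CPM), and only Cyp26b1 was called.

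Between the gates 0 of 5 members were called in neuron-like cells, against 4.75% of 9571 genes. Crabp2 came nearest, 1.92 times lower (1.80 to 2.04) in GFP high, and Crabp1 was 1.12 times lower (1.07 to 1.17). With GFP high given the cluster mix of GFP low, over 6 clusters and with 1 left out, Crabp2 was 1.13 times lower and Crabp1 1.33 times higher in GFP high, so Crabp1 turned direction. Beside the gap over all cells, 231 cells of GFP high and 1136 of GFP low were neuron-like. None of 13 other pathway genes was called here, and from day 16 to day 20 Tshz1 alone of 11 was lower, 57.6 against 21.6 CPM.

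**Figure D5:**
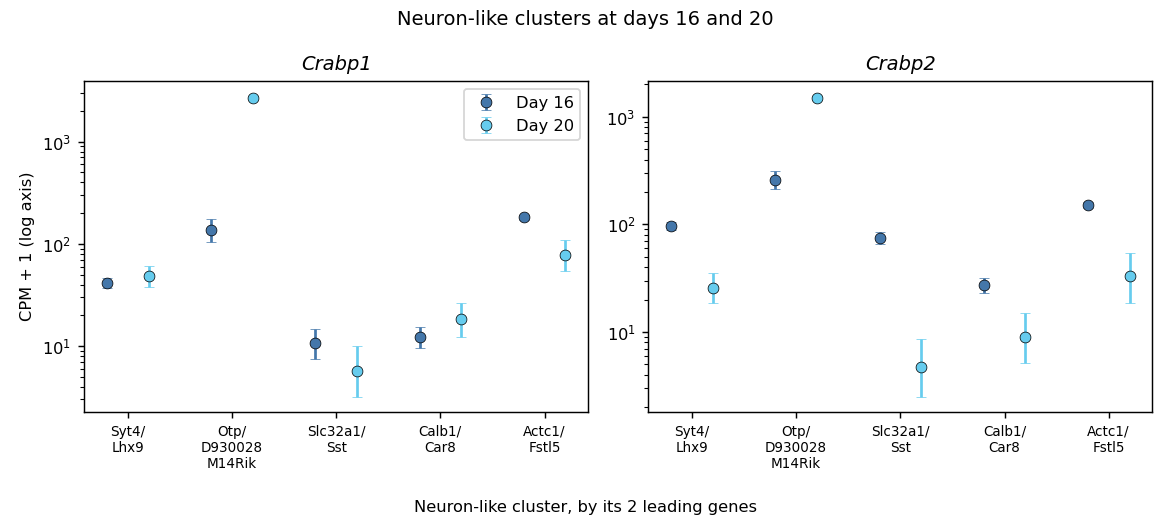
Crabp1 and Crabp2 in the 5 neuron-like clusters measured at both day 16 and day 20, as CPM + 1 on a log axis with exact Poisson 95% intervals. In the Otp cluster both genes are higher at day 20 (2702 and 1486 CPM), and in the other 4 clusters Crabp2 is lower at day 20.

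In mesenchyme-like cells from day 16 to day 20, 1 of 6 measured members was lower, against 9.09% of 8835 genes: Cyp26b1, 3.45 times (3.07 to 3.88). Over the 4 clusters with 10 or more cells in both libraries and the day 16 mix, chosen after seeing the data and with 1 cluster left out, Cyp26b1 was 1.70 times lower (54.2 against 92.2 CPM) and no longer called, and Dhrs3 was 2.05 times higher (27.2 against 13.3 CPM) and called. Cyp26b1 was lower within the Col1a1 and Col3a1 cluster, 187.8 against 38.5 CPM, whose cells had a median depth of 0.246 times that of their libraries, and in the Bgn and Col1a1 cluster, 161.7 against 102.2. The mix changed too, since 1553 of the 2028 mesenchyme-like cells of day 20 were of the Dcn and Mgp cluster, with 17.5 CPM of Cyp26b1, and 11 of 936 at day 16 were. Of 19 other pathway genes measured, 3 were higher and 3 lower. Rbp4, the retinol carrier of blood, went from 29.9 to 105.8 CPM and Rarres2, named for its induction by retinoids, from 23.7 to 82.8, while Meis2 went from 124.3 to 29.1 and Tshz1 from 40.7 to 9.96. Over all cells from day 16 to day 20, 2 of 16 other pathway genes were higher, Rarres2 (7.08 times) and Rbp4 (6.45 times), and 1 was lower, Tshz1 (2.95 times).

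Over all cells of the day 21 gates, 1 of 20 other pathway genes was higher in GFP high and 6 were lower. Rdh12 stood at 32.4 against 11.5 CPM, Meis1 at 10.8 against 37.4, and Stra8, a germ cell gene induced by retinoic acid, at 1.27 against 65.5. Stra8 was at most 0.518 CPM in the hair-cell-like, supporting-cell-like, neuron-like and, in GFP low, mesenchyme-like cells of these libraries. The other clearing enzymes were scarce: Cyp26a1 stood at 0.357 to 4.43 CPM over the libraries, and Cyp26c1 at 0 in 3 of them and 0.0215 CPM in GFP low. Stra6, the retinol transporter, stood at 5.78, 10.2, 37.8 and 66.8 CPM in hair-cell-like cells, and in mesenchyme-like cells at 0.232 CPM at day 20 and 66.5 in GFP low.

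Likeness of pattern was measured by Pearson's r of log2(CPM + 1) over the 22 pairs of class and library, among 11569 genes. The pairs share 4 libraries and are not independent, so r only describes. The genes most like Rarb were Stra6 (0.905), Usp8 (0.899) and Gtf2i (0.896), and those most like Dhrs3 were Car12 (0.870), Bhlhe40 (0.861) and Nfkb2 (0.859). Rarb and Dhrs3 had r of 0.607 with each other. Aldh1a3 was most like Fbxo32 (0.916), Tmem30b (0.906) and Lrrc51 (0.903), and Aldh1a2 like Ccl11 (0.957), Dab2 (0.956) and Kcne4 (0.956). Cyp26b1 was most like Igdcc4 (0.871), Mmp16 (0.861) and Bmp3 (0.857). Crabp1 was most like Enc1 (0.923), AW551984 (0.915) and Edil3 (0.908), Crabp2 like Gsto1 (0.882), Rnd3 (0.860) and Vav3 (0.824), and the carriers had r of 0.669 with each other. Aldh1a1, at most 18.2 CPM in any pair, was most like 6030407O03Rik (0.933), Slc6a14 (0.932) and Ces1d (0.924).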

How the data were processed

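RNA of single cells was measured in 4 droplet libraries, 1 for each group of the labels. The values the authors deposited are counts of UMIs, whole and not normalized, for each gene in each barcode. Cell Ranger 6.1.2 stands in the file headers. The submitters' processing notes name mm10, Seurat 4.0.6 and, for Cell Ranger, version 6.1.0. The labels' description speaks of nuclei and the protocol of cells.

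Barcodes with fewer than 1000 genes or more than 15% mitochondrial UMIs were left out, and the highest Scrublet scores were removed as doublets at 0.8% per 1000 barcodes (138, 238, 113 and 143). Median UMIs were 15210, 8831, 28865 and 22175. Clustering used Scanpy 1.11.5: 2000 variable genes without the 42 retinoid genes, 30 components, 20 neighbours and the Leiden method (leidenalg 0.10.2) at resolution 1, giving 30 clusters. A cluster took a class name when at least 50% of that class's markers, and at least 3, were 4 or more times the median cluster, with more of them raised than for any other qualifying list. The clusters were already known when this rule was written.

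Summed counts were scaled as CPM, with exact Poisson intervals for levels and exact conditional binomial intervals for ratios, all at 95%. Shares of cells with a UMI come from cells thinned to 3000 UMIs. With 1 library per group no p-values were computed. The call by size was tried on Poisson counts simulated from a pooled hair-cell-like profile with planted changes. These counts hold no variation between cells, cultures or libraries, so they cannot show how calls between single libraries would hold. Background percentages are over genes at 10 CPM or more on either side. All 8 members are named, up to 4 called other pathway genes at 20 CPM or more per comparison, and the 3 genes most like each member. Cyp26a1, Cyp26c1, Stra6 levels and the day 21 comparisons were chosen after their values were seen. The members and lists were chosen with earlier results of these data known. Gene coordinates are from GENCODE M21 (GRCm38). For TMM, R 4.3.3 with edgeR 4.0.16 was used. Python was version 3.11.15, with scikit-learn 1.9.0, pandas 2.3.3, igraph 0.11.9, scipy 1.17.1, matplotlib 3.10.9 and numpy 2.4.6. Results of 1 other pathway gene are not reported here. Alternatives were other cell filters, class definitions, scalings and minimum levels.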

Additional observations from a re-analysis of the deposited data

Results flagged for a closer look

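A contrast pointed opposite ways in different cell classes for 3 genes, with 1 library a side, so the difference was not tested. For Rarb the ratio of GFP high over GFP low was 1.70 in neuron-like cells, 0.455 in hair-cell-like cells and 0.762 in supporting-cell-like cells. With GFP high given the cluster mix of GFP low it was 1.22 in neuron-like and 0.810 in hair-cell-like cells. For Crabp1 the ratio of day 20 over day 16 was 7.67 in neuron-like cells and 0.786 in mesenchyme-like cells. For Crabp2 the same ratio was 3.14 in neuron-like cells, 0.395 in hair-cell-like cells and 0.764 in mesenchyme-like cells. Without the Otp cluster the neuron-like ratio of Crabp2 was 0.162 and that of Crabp1 was below 1 (71.8 then 52.1 CPM), and neither was opposite any longer. With the Otp cluster kept and the day 16 mix of clusters, the neuron-like ratio was 1.39 for Crabp1 and 0.524 for Crabp2.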

How the results depend on the processing

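Values are numbers of the 8 genes called. Of 137 comparisons under another setting, 113 stayed within 1.5 times the reported count, 13 lay above it, 5 below it and 6 turned direction, by a called gene or by the balance of calls. Of 976 ratios of single genes under another setting, 768 stayed within the reported counting interval, 202 moved outside it and 6, of called genes, turned direction. For mesenchyme at day 20 over day 16 (reported 1) the count was 2 with TMM scaling, 2 with the mean of per-cell CPM, 3 with no minimum level and 2 with doublets kept. For GFP low over day 20 it was, in Merkel-cell-like cells (reported 1), 0 with TMM, 0 with per-cell means, 3 with no minimum, 6 with classes taken from markers per cell and 2 with doublets kept; in epidermis-like cells (reported 5) 3 with per-cell means; in neuron-like cells (reported 1) 3 with no minimum; and in mesenchyme-like cells (reported 4) 4 with doublets kept, where Aldh1a2 turned to 0.131 times because the Ptgds and Otor cluster went unnamed. Between the gates it was 1 with no minimum and 1 with markers per cell in supporting-cell-like cells (reported 0), and 2 with no minimum, 1 at resolution 2.0 and 1 with markers per cell in neuron-like cells (reported 0). With both libraries given the same cluster mix it was 0 for hair-cell-like cells between the gates (reported 3) and 2 for hair-cell-like cells by day (reported 4). Such a mix gave 1 lower for neuron-like cells by day (reported 2 higher) and 1 higher for mesenchyme by day (reported 1 lower). The neuron-like gene called was Cyp26b1, at 0.481 times, while Crabp2 turned to 0.524 times, short of a call. For GFP low over day 20 the same mix gave 1 lower in neuron-like cells (reported 1 higher), and 5 in mesenchyme-like cells (reported 4), where Aldh1a2 turned to 0.310 times. Without the Otp cluster it was 1, in the opposite direction, and the results "Crabp1, day 20 over day 16, neuron-like" and "Crabp2, day 20 over day 16, neuron-like" turned to 0.725 and 0.162 times. Crabp1 in epidermis-like cells, GFP low over day 20, turned to 0.526 with retinoid genes allowed in the clustering; the cause was not tested. TMM moved all log2 ratios by 0.31 in mesenchyme by day, by 0.12 and 0.19 over all cells (gates and days), and by -0.31, -0.26 and -0.32 for GFP low over day 20 in mesenchyme-, epidermis- and Merkel-cell-like cells. No paired analysis was possible because each group had 1 library. Depth limits the supporting-cell-like values of days 16 and 20 (25 and 17 cells).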
